A study of Saccharomyces cerevisiae with 12 samples.

Results

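The genes described here are the 10 that encode the enzymes of branched-chain amino acid biosynthesis in Saccharomyces cerevisiae, namely ILV1, ILV2, ILV6, ILV5, ILV3, LEU4, LEU9, LEU1, BAT1 and BAT2. They were chosen by name from the pathway and not by their values, though with earlier results of these data known. All 10 were found among the 6612 features of each expression table. Dihydrouridine (D) is a modified uridine that dihydrouridine synthases (DUS) place in tRNAs and other RNAs. The study mapped D sites by D-seq and added RNA-seq of the 2 strains, and 3 RNA-seq libraries from each strain were analysed here. WT is the haploid laboratory strain BY4741, with no further treatment named, and DUS KO carries deletions of DUS1, DUS2, DUS3 and DUS4 together. Both strains are described as grown to mid-log phase, though the paper's methods give only a culture density, and both gave polyA RNA. The labels do not say whether the 3 libraries of a strain came from separate cultures. The question asked is how the mRNA levels of these enzymes compare between a strain with the DUS enzymes and one without them.

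Isoleucine and valine are made in mitochondria by a shared set of enzymes that work on 2 parallel substrates, and leucine is made from the last intermediate of the valine route. Acetolactate synthase joins pyruvate with a second keto acid, Ilv5 and Ilv3 carry the product to the branched-chain keto acids, and the transaminases Bat1 (mitochondrial) and Bat2 (cytosolic) turn these into amino acids. The pathway is known for control by Gcn4, the activator of amino acid genes whose translation rises on starvation, and by Leu3, an activator that needs the intermediate alpha-isopropylmalate.

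Because Leu3 and Gcn4 are the known activators of the pathway, the 500 bases before each start codon were read from the R64 genome of RefSeq, which is the sacCer3 build named in the submitters' processing notes. The Leu3 motif was searched as CCGGNNCCGG and the Gcn4 motif as TGACTC, each on both strands, and no match to one overlapped a match to the other. The Leu3 motif was in 4 of the 10 windows (ILV2, ILV5, LEU1 and BAT1). Among the features tested below, 15 of 5497 windows of the same length held it, or 0.273%, these 4 included. The 4 stretches that hold it are shown with the motif in capitals, each read on its gene's coding strand.
ILV2: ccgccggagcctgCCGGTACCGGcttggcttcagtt
ILV5: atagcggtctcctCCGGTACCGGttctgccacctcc
LEU1: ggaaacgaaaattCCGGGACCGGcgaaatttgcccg
BAT1: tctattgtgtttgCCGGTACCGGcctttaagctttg

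ILV2, ILV5 and BAT1 have the same 10 letters, and LEU1 differs from them within the free middle pair. The stretches lie at chrXIII:483603-483638 (plus strand) for ILV2, chrXII:839608-839643 (minus strand) for ILV5, chrVII:478847-478882 (minus strand) for LEU1 and chrVIII:517372-517407 (plus strand) for BAT1. The motif begins 468, 377, 217 and 147 bases before the start codons of ILV2, ILV5, LEU1 and BAT1, in that order. The Gcn4 motif was in 8 of the 10 windows, all but those of ILV2 and BAT2, against 12.8% of the same windows of tested features, the 8 included. ILV5 had 3 matches and each of the other 7 genes had 1. The Gcn4 stretch of ILV6 and the ILV5 stretch nearest to its start codon are shown because these are the genes with the lowest fold changes below.
ILV6: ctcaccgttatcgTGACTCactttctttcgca
ILV5: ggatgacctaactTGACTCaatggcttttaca

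These stretches lie at chrIII:105680-105711 and chrXII:839375-839406, both on the minus strand, with the motif 150 bases before the start codon of ILV6 and 140 before that of ILV5. ILV5, LEU1 and BAT1 had both motifs, and BAT2 had neither. A match is a run of letters and was not tested for binding.

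Libraries differed in depth, and the strains differed at loci beyond the DUS genes. Estimated counts summed to between 4336794 and 5652837 per WT library and to 5500084, 2856581 and 656162 in DUS KO replicates 1, 2 and 3. DUS1 and DUS4 had no counts in DUS KO, DUS2 had 3 counts in 1 DUS KO library, and DUS3 had 64.1, 52.2 and 6.49 counts there against 128.7, 82 and 112 in WT, so reads were assigned to DUS3 in the strain labelled as lacking it. BY4741 is known to lack MET17, LEU2 and URA3. MET17 had 0, 92 and 155 counts in WT replicates 1, 2 and 3 and 618, 290 and 37 in DUS KO, so WT replicates 2 and 3 went against their strain label at this gene, and the log2 fold change of each gene and the 3 ratios are therefore also given without them. With 1 WT library left, the edgeR values without them assume that it varies like the DUS KO libraries, and the ratios have no test. For LYS2 the counts were 2, 0 and 1 in DUS KO against 148, 330 and 86 in WT, and effects of these loci cannot be told apart from those of the DUS deletions. Of 5 a-specific mating genes, which mark the mating type of BY4741, all 5 were detected in every library, with summed levels of 301 to 732 CPM in WT and 986 to 997 CPM in DUS KO. The 4 alpha-specific genes read beside them had summed levels of 13.1 to 17.7 CPM in WT and 7.43 to 12.8 CPM in DUS KO. Of these, only MFALPHA2 had counts in every library. MFALPHA1 had 0 counts in each WT library and 0, 2 and 0 in DUS KO replicates 1, 2 and 3. STE3 had 0 counts in WT replicate 2, and SAG1 had 0 in DUS KO replicate 3. The part of these differences in the results was not tested.

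Levels per library are given as normalized counts (CPM, estimated counts scaled to library size with TMM factors), which allow a gene to be compared between libraries. TPM, the authors' value per length, is used to compare genes with each other. In bulk RNA, less mRNA per cell and fewer cells that express a gene cannot be told apart.

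None of the 10 genes differed between the strains at an adjusted p under 0.05 in edgeR's quasi-likelihood test, and the adjusted p-values ran from 0.265 to 0.961. Across all 5884 features tested, 0.085% passed that threshold, or 5 features, of which 4 were DUS1, DUS2, DUS4 and LYS2. At an unadjusted p under 0.05 there were 2 of the 10, ILV6 and ILV5, both lower in DUS KO, where 8.26% of all features reached that level. Of the 10 log2 fold changes, 9 were below 0 and 1 was above it, where 51.6% of all features were below 0. Of the 10, 6 were below 0 with total-count scaling, 2 with limma on log2(TPM + 1) and 6 without WT replicate 3. The median over the 10 genes was -0.24 against -0.02 over all features tested, -0.071 against 0.16 with total counts and 0.085 against 0.21 on log2(TPM + 1), so on each scale it lay below that of all features. The 3 DUS KO libraries all lay below the 3 WT libraries for ILV6 and ILV5 (7.68% of all features did so) and all above them for 0 genes (7.83% of all features). With DESeq2, 1 of the 10 passed an adjusted p of 0.05, ILV6 at 0.0254. That fit gave an adjusted p to 1328 of 6473 features, and 3.31% of these 1328 were called lower. Its adjusted p-values and shares are thus over fewer features than the 5884 of edgeR. No member was called by limma on voom or log2 TPM values, nor by edgeR under other scalings and filters, with a replicate block, or with any library left out.

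**Figure D1:**
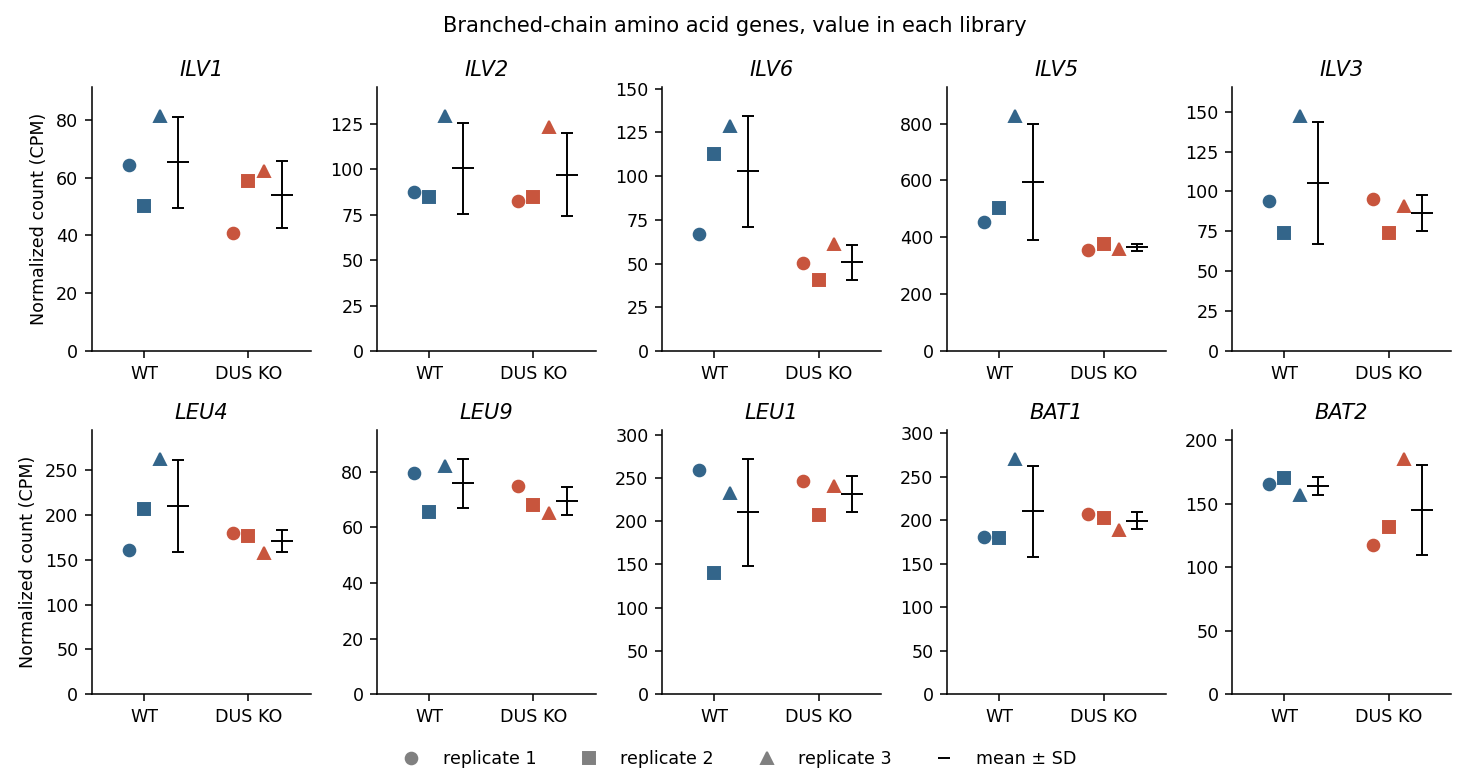
Normalized count (CPM, vertical axes from 0) of each gene in the 3 WT (blue) and 3 DUS KO (red) libraries, with the marker giving the replicate and the bar the mean and SD. The DUS KO points lie below all WT points for ILV6 and ILV5 and the ranges of the strains overlap for the other 8 genes.

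Acetolactate synthase, the first enzyme shared by the isoleucine and valine routes, has a catalytic subunit, Ilv2, and a regulatory subunit, Ilv6, through which valine inhibits it. ILV6 (YCL009C, chrIII:104619-105548, minus strand, 1 coding exon) was at 67.1, 112.5 and 128.5 CPM in WT replicates 1, 2 and 3. In DUS KO it was at 50.5, 40.9 and 60.9 CPM, so that every DUS KO library was below every WT library, with WT replicate 1 the nearest. The DUS KO mean was 49.4% of the WT mean, and the log2 fold change was -1.05 (SE 0.28, 95% interval -1.64 to -0.45), with an unadjusted p of 0.00221 and an adjusted p of 0.265 in edgeR. Only 41 counts lay behind the value of DUS KO replicate 3. On the TPM scale the strains overlapped, at 18.6, 29.2 and 38.8 TPM in WT, against 19.1, 13.2 and 20.5 TPM in DUS KO. The log2 fold change of ILV6 was below 0 in all 18 alternatives and ran from -1.28 to -0.45, the value without WT replicates 2 and 3, at which its adjusted p was 0.622.

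ILV2 (YMR108W, chrXIII:484084-486147, plus strand, 1 coding exon) did not show this pattern. It was at 87.5, 84.9 and 129.6 CPM in WT and at 82.8, 84.7 and 123 CPM in DUS KO. In each strain replicate 3 was high and the other libraries were close together, and the strains overlapped. The log2 fold change was -0.08 (95% interval -0.61 to 0.44), and with 1 library left out it ran from -0.27 (without DUS KO replicate 3) to 0.13 (without WT replicate 3). Without WT replicates 2 and 3 it was 0.09. The ILV2 to ILV6 ratio of TPM, catalytic over regulatory subunit, was 0.566, 0.328 and 0.438 in WT, against 0.712, 0.900 and 0.879 in DUS KO. Each DUS KO library had a higher ratio than each WT library, though ILV6 stayed the higher of the pair per length throughout. WT replicate 1, the WT library without MET17 counts, had the WT ratio nearest to those of DUS KO, and without WT replicates 2 and 3 the difference of log2 ratios was 0.54. The mean log2 ratio was -1.21 ± 0.39 (SD) in WT and -0.28 ± 0.19 in DUS KO, a difference of 0.93. The two-sided exact permutation p was 0.1, the smallest that 3 libraries against 3 allow, and 0.3 after adjustment over the 3 ratios tested, so this design could not bring it under 0.05.

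ILV5 encodes acetohydroxyacid reductoisomerase, an abundant mitochondrial protein that also takes part in the maintenance of mitochondrial DNA. ILV5 (YLR355C, chrXII:838066-839253, minus strand, 1 coding exon) was at 453, 503 and 828 CPM in WT and at 357, 378 and 359 CPM in DUS KO. The 3 DUS KO libraries were close together and below all WT libraries, and WT replicate 3 stood far above the other 5. The DUS KO mean was 61.3% of the WT mean, with a log2 fold change of -0.71 (SE 0.22, 95% interval -1.19 to -0.22), an unadjusted p of 0.00774 and an adjusted p of 0.389 in edgeR. Without WT replicate 3 the log2 fold change was -0.39 (adjusted p = 0.337), and without WT replicates 2 and 3 it was -0.32 (adjusted p = 0.590). On the TPM scale ILV5 was at 96.8, 100.8 and 192.9 TPM in WT, against 103.8, 94.1 and 93.5 TPM in DUS KO. There the strains overlapped, and the limma log2 fold change with a pseudocount of 1 was -0.34.

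ILV3 encodes dihydroxyacid dehydratase, an iron-sulfur enzyme that makes the branched-chain keto acids. ILV3 (YJR016C, chrX:464451-466208, minus strand, 1 coding exon) was at 94.1, 74.0 and 147.6 CPM in WT and at 95.4, 74.1 and 90.6 CPM in DUS KO. WT replicate 3 was again high, and the other 5 libraries of both strains covered the same range. The log2 fold change was -0.28 (95% interval -0.84 to 0.28). It was 0.04 without WT replicate 3, -0.48 without WT replicate 2, -0.18 without DUS KO replicate 2 and -0.13 without WT replicates 2 and 3. ILV1 encodes threonine deaminase, the entry of threonine into the isoleucine route. ILV1 (YER086W, chrV:328477-330207, plus strand, 1 coding exon) was at 64.4, 50.0 and 81.4 CPM in WT and at 40.9, 58.9 and 62.4 CPM in DUS KO. The strains overlapped, and the log2 fold change was -0.30 (95% interval -0.87 to 0.28), with only 42 counts in DUS KO replicate 3. It was -0.11 without WT replicate 3, -0.11 without DUS KO replicate 1, -0.46 without WT replicate 2 and -0.30 without WT replicates 2 and 3.

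**Figure D2:**
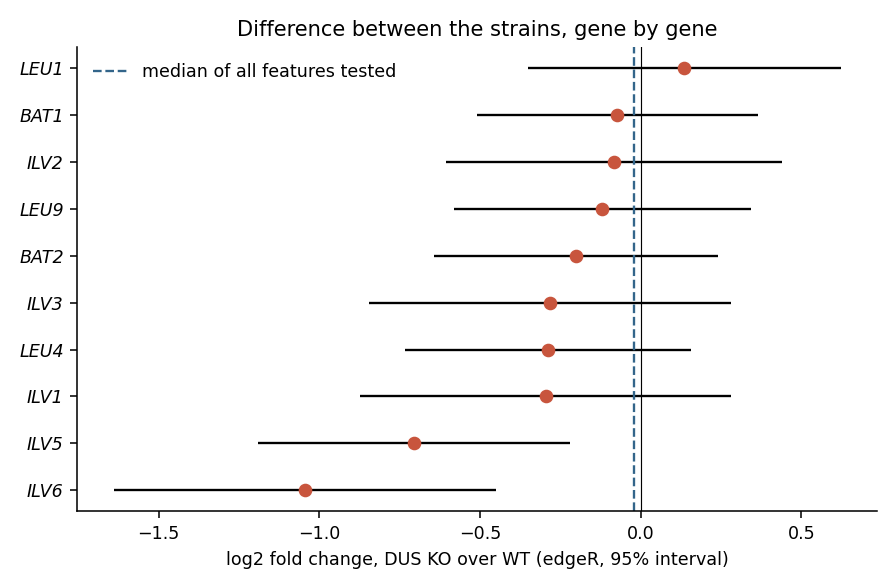
Log2 fold change of DUS KO over WT for each gene (points) with its 95% interval (lines), from edgeR, and the median of all features tested (dashed line, -0.02). The intervals of ILV6 and ILV5 lie below 0, and those of the other 8 genes include 0.

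The leucine branch begins with alpha-isopropylmalate synthase, made by the paralogs LEU4 and LEU9, and goes on with the isomerase Leu1. LEU4 (YNL104C, chrXIV:424895-426754, minus strand, 1 coding exon) was at 160.8, 207 and 263 CPM in WT and at 180.3, 177 and 157 CPM in DUS KO. The WT libraries spanned the wider range and WT replicate 1 lay among the DUS KO libraries. The log2 fold change was -0.29 (95% interval -0.73 to 0.16), and it was -0.45 without WT replicate 1, -0.09 without WT replicate 3 and 0.10 without WT replicates 2 and 3. LEU9 (YOR108W, chrXV:523027-524841, plus strand, 1 coding exon) was at 79.7, 65.7 and 82.3 CPM in WT and at 75.1, 68.0 and 65.4 CPM in DUS KO. The strains overlapped in this narrow range, and the log2 fold change was -0.12 (95% interval -0.58 to 0.34). With 1 library left out it ran from -0.21 (without WT replicate 2) to -0.06 (without WT replicate 3), and without WT replicates 2 and 3 it was -0.19.

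The value of LEU9 is less certain than the others, because its estimated counts were not whole in any of the 6 libraries, and such counts arise where reads are divided between features. The sum of LEU9 and the feature YOR108C-A, which the RefSeq annotation used here does not name, was whole within 0.02 in the 5 libraries other than WT replicate 3 (495, 456, 565, 314 and 75 counts). In WT replicate 3, adding LEU4 as well gave 1694 counts. LEU9 took between 58.4% and 79.0% of the pair's counts. Counted as 1 feature, LEU9 and YOR108C-A had a log2 fold change of -0.07 (adjusted p = 0.956). LEU4 and LEU9 were identical at 79.3% of 1809 aligned coding bases. Their longest shared run, shown because reads that fall within it cannot be assigned to 1 of the 2 genes, is 41 bases and lies at chrXIV:425892-425932 (minus strand) in LEU4 and chrXV:523846-523886 (plus strand) in LEU9.
LEU4 and LEU9: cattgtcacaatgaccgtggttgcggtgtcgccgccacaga

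The LEU4 to LEU9 ratio of TPM was 1.97, 3.07 and 3.12 in WT, against 2.34, 2.53 and 2.36 in DUS KO. LEU4 was the higher of the paralogs in every library, and the DUS KO ratios lay inside the WT range (difference of mean log2 ratios -0.14, two-sided exact permutation p = 0.4, 0.6 after adjustment over the 3 ratios). Single WT libraries moved this difference, which was -0.36 without replicate 1, -0.04 without replicate 2 and -0.03 without replicate 3, and without WT replicates 2 and 3 it was 0.29, with the opposite sign.

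LEU1 was the only member with a log2 fold change above 0 in edgeR with all libraries and TMM scaling. LEU1 (YGL009C, chrVII:476313-478652, minus strand, 1 coding exon) was at 259, 140.6 and 232 CPM in WT and at 246, 207 and 241 CPM in DUS KO. WT replicate 2 was low and the other 5 libraries were close together. The log2 fold change was 0.14 (95% interval -0.35 to 0.62), and it was -0.09 without WT replicate 2, 0.31 without WT replicate 1 and -0.17 without WT replicates 2 and 3. LEU2, the isopropylmalate dehydrogenase that follows Leu1, had 0 counts in all 6 libraries, which allows up to 3 counts per library, so the strains compared here lacked detectable mRNA for that step.

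The transaminases end all 3 routes. BAT1 (YHR208W, chrVIII:517532-518713, plus strand, 1 coding exon), the mitochondrial form, was at 180.3, 179 and 271 CPM in WT and at 207, 203 and 189 CPM in DUS KO. WT replicate 3 was high, the other WT libraries were below all DUS KO libraries, and the log2 fold change was -0.07 (95% interval -0.51 to 0.36). It was 0.15 without WT replicate 3, -0.18 without WT replicate 2, -0.17 without WT replicate 1 and 0.15 without WT replicates 2 and 3. BAT2 (YJR148W, chrX:705744-706874, plus strand, 1 coding exon), the cytosolic form, was at 166, 170.0 and 157 CPM in WT and at 118, 132 and 186 CPM in DUS KO. For BAT2 alone among the 10 genes the DUS KO libraries varied more than the WT libraries (CV 24.7% against 4.19%), and DUS KO replicate 3 was the highest of the 6. The log2 fold change was -0.20 (95% interval -0.64 to 0.24), -0.06 without DUS KO replicate 1, -0.40 without DUS KO replicate 3 and -0.24 without WT replicates 2 and 3.

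The paralogs BAT1 and BAT2 were identical at 71.2% of 1131 aligned coding bases and shared no run longer than 17 bases, and the counts of both were whole in every library. The BAT1 to BAT2 ratio of TPM was 1.04, 1.01 and 1.65 in WT, against 1.68, 1.47 and 0.970 in DUS KO. Both strains ranged from about equal levels to a higher BAT1, and the strains overlapped (difference of mean log2 ratios 0.16, two-sided exact permutation p = 0.9, and 0.9 after adjustment). With 1 library left out the difference ran from -0.0077 (without DUS KO replicate 1) to 0.39 (without DUS KO replicate 3), and without WT replicates 2 and 3 it was 0.36.

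**Figure D3:**
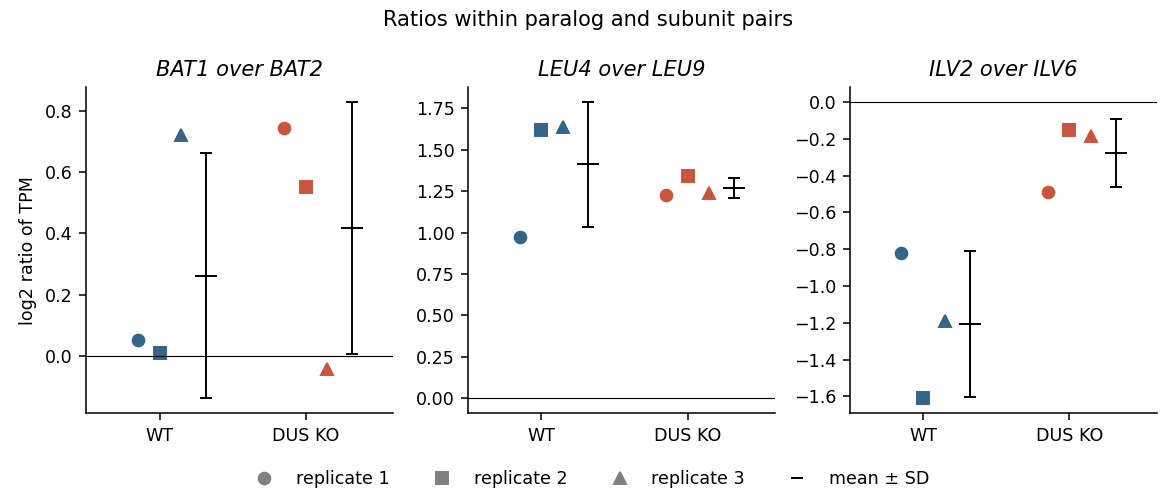
Log2 ratio of TPM within each pair of genes in the 3 WT (blue) and 3 DUS KO (red) libraries, with the mean and SD beside the points (vertical axes differ between panels, and the line at 0 marks equal levels). The ILV2 to ILV6 ratio is higher in each DUS KO library than in each WT library, and the other 2 ratios overlap.

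Several genes shared 1 feature across libraries that the choice of genes by name did not use. WT replicate 3 was the highest WT library for 8 of the 10 genes, all but LEU1 and BAT2, against 34.0% of all features tested. The level in WT replicate 3 over the mean of WT replicates 1 and 2 had a median of 1.43 over the 10 genes and of 0.998 over all features tested. It was highest for ILV3, at 1.76, and ILV5, at 1.73, and lowest for BAT2, at 0.932. The WT libraries varied more than the DUS KO libraries for 9 of the 10 genes, as they did for 59.2% of all features. Without WT replicate 3 the median log2 fold change of the 10 genes was -0.08, with 4 genes above 0 and 6 below, and without WT replicates 2 and 3 it was -0.18, with 3 above and 7 below. It was -0.15 without DUS KO replicate 1 and -0.16 without DUS KO replicate 2.

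**Figure D4:**
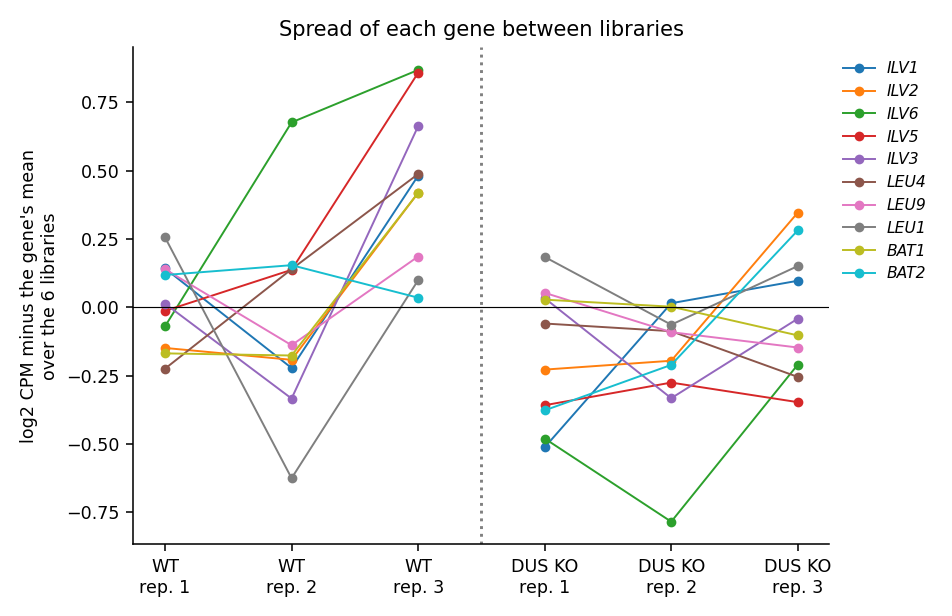
Log2 CPM of each gene minus its mean over the 6 libraries (vertical axis), for the 3 WT and 3 DUS KO libraries (horizontal axis, with lines joining a gene's values within a strain for legibility and not an order). In WT replicate 3 all 10 genes lie above their means, whereas ILV6, ILV5 and LEU4 lie below theirs in all 3 DUS KO libraries.

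Summed over the 10 genes, the level was 1612, 1587 and 2321 CPM in WT, against 1452, 1423 and 1534 CPM in DUS KO. The DUS KO sums were all below the WT sums, and WT replicate 3 stood above the rest. ILV5, itself below in every DUS KO library, had the highest CPM of the members in each library and is part of these sums. On the TPM scale the sums were 284, 277 and 464 in WT, against 342, 291 and 326 in DUS KO, and there the strains overlapped. Without ILV5 the TPM sums were 188, 176 and 271 in WT, against 238, 197 and 233 in DUS KO, and these overlapped too. ILV5 made up 34.0%, 36.4% and 41.6% of the summed TPM in WT, against 30.4%, 32.4% and 28.6% in DUS KO, the highest share of any member in each library.

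Per length, ILV5 was the most abundant of the 10 mRNAs in both strains, at 130.1 ± 54.4 TPM (SD, n = 3) in WT and 97.2 ± 5.79 TPM in DUS KO, and its libraries did not overlap with those of BAT1, the next gene. In WT the order after ILV5 was BAT1 (46.1 TPM), BAT2, ILV6, LEU4, LEU1, ILV3, ILV2, LEU9 and ILV1 (9.62 TPM), and each neighbour in that order overlapped with the next. In DUS KO the order was BAT1 (53.5 TPM), BAT2, LEU1, LEU4, ILV6, ILV3, ILV2, LEU9 and ILV1 (9.64 TPM). There the only gap after ILV5 and BAT1 was between LEU4, at 28.7 ± 3.74 TPM, and ILV6, at 17.6 ± 3.87 TPM. ILV6 was the fourth gene in WT, at 28.9 ± 10.1 TPM, and the sixth in DUS KO, and this shift in rank was not tested.

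The activators, the feeding pathway and the users of branched-chain amino acids were read from the same fit, and none of their genes was called. GCN4 was at 517, 548 and 671 CPM in WT and at 508, 496 and 542 CPM in DUS KO, with a log2 fold change of -0.17 (adjusted p = 0.861), and LEU3, at 8.47 to 14.4 CPM in WT, had a log2 fold change of 0.18 (adjusted p = 0.953). These are mRNA levels, and Gcn4 is controlled mainly at translation. The mitochondrial carrier OAC1, which is known to export alpha-isopropylmalate, had a log2 fold change of 0.12, and MMF1, a mitochondrial protein needed for isoleucine synthesis and mitochondrial maintenance, one of 0.17. Of 6 genes for threonine synthesis and its breakdown, 1 log2 fold change was above 0 and 5 were below, from -0.34 for CHA1, a serine and threonine deaminase, to 0.17 for HOM6, homoserine dehydrogenase.

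Of 7 genes for uptake of branched-chain amino acids and its control, 3 log2 fold changes were above 0 and 4 below. They ran from -0.80 for STP1, a transcription factor of the amino acid sensor pathway with only 2 counts in DUS KO replicate 3, to 0.45 for SSY1, the sensor itself. BAP3, of the same list, was at 107.9, 108.1 and 121.3 CPM in WT, against 151.0, 145.6 and 132.2 CPM in DUS KO. Its DUS KO libraries were all above its WT libraries, as for 7.83% of all features. The log2 fold change of BAP3 was 0.35 (adjusted p = 0.634 in edgeR). Of 5 decarboxylase genes of the Ehrlich pathway, by which branched-chain keto acids become fusel alcohols, 2 were above 0 and 3 below. PDC1, the main pyruvate decarboxylase, whose estimated counts were also not whole, was at 2500, 2615 and 3100 CPM in WT, against 2156, 1810 and 2086 CPM in DUS KO. Its DUS KO libraries were all below its WT libraries, with a log2 fold change of -0.44 (adjusted p = 0.522 in edgeR). PDC6, a minor isozyme with at most 22 counts in any library, had the highest value of that list at 1.42 (95% interval -1.69 to 4.52).

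The genes whose pattern over the 6 libraries lay nearest to the mean pattern of the 10 members were sought among 767 other features with a mean of at least 100 CPM. The measure was the root-mean-square difference of centred log2 CPM, and it is a description that rests largely on the high value of WT replicate 3. The nearest were RPL4A (0.0686), a ribosomal protein gene, TUB2 (0.0699), beta-tubulin, CWP2 (0.0716), a cell wall protein, DED81 (0.0759), asparaginyl-tRNA synthetase, and GCN4 (0.0846).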

How the data were processed

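The 6 RNA-seq libraries, 3 of each strain, were used. The 6 D-seq samples were not analysed here. The authors deposited an estimated count, a TPM value and lengths for each of 6612 coding features. The study's methods name bbduk trimming, collapse of duplicates by UMI and bbmap alignment to sacCer3, and the program behind the estimates is, in the sources used here, not given. TPM was scaled by the authors to effective length and library total.

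Estimated counts were rounded and filtered with filterByExpr (5884 features kept, all 10 members among them, and 728 removed), scaled by TMM and tested with edgeR 4.0.16 (R 4.3.3, robust quasi-likelihood, Benjamini-Hochberg over all features, threshold 0.05), after tests on simulated data. TPM ratios were tested by exact permutation (SciPy 1.17.1). p-values measure the spread between libraries, which may be technical. Alternatives used DESeq2 1.42.0, limma 3.58.1, other scalings and filters, a replicate block, and libraries left out. Leaving out WT replicates 2 and 3 together (for the ratios too) and summing LEU9 with YOR108C-A were chosen after seeing the data.

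All members are named. From each other list of genes the called ones are named, or else those of highest and lowest fold change, with LEU2, LEU3 and GCN4 always, and then the 5 nearest in pattern. PDC1 and BAP3 were added after their values were seen. The members and lists were chosen with earlier results of these data known. Coding lengths in the tables equal those of the R64 annotation for 5908 of the 5917 features found in it.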

Additional observations from a re-analysis of the deposited data

How the results depend on the processing

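The number of genes that differed over all features, 5 by edgeR, was 3 with total-count scaling, 1 with at least 10 counts in every library, 62 with DESeq2 (18 higher and 44 lower), 0 with limma on voom values (600 at an unadjusted p under 0.05), 1 with limma on log2(TPM + 1), 1 on log2(TPM + 0.1), 8 at a mean TPM of at least 10 (7 higher and 1 lower), and 22 without WT replicates 2 and 3. Leaving out single libraries gave 1 (without DUS KO replicate 1) to 12 (without WT replicate 1). Of the 5 edgeR calls, 4 were DUS1, DUS2, DUS4 and LYS2. DESeq2 called 1 of those 5 features, and limma at a mean TPM of at least 10 called 0 of them. These counts are therefore not sizes of the same list of genes. Of the 10 members, 1 was called by DESeq2 and 0 under the other alternatives. The cause of these changes was not tested.

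The median log2 fold change of the members, -0.24, was -0.071 with total counts, 0.085 with a TPM pseudocount of 1, 0.090 with 0.1 and 0.10 at a mean TPM of at least 10. Relative to the median of all features, which was 0.28 with a pseudocount of 0.1 and 0.23 at a mean TPM of at least 10, the members' median was below 0 in 18 of 18 alternatives (-0.28 to -0.10).

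Of 184 values of single genes, 150 kept direction and call, 1 gained the call (ILV6 with DESeq2, -1.04) and 33 changed sign, none of ILV6 or ILV5. With a TPM pseudocount of 1 the log2 fold changes were ILV1 0.033, ILV2 0.24, ILV3 0.070, LEU4 0.037, LEU9 0.17, BAT1 0.25 and BAT2 0.10, and those still tested at a mean TPM of at least 10, all of these but ILV1, had the same values. With a pseudocount of 0.1 they were ILV1 0.039, ILV2 0.25, ILV3 0.078, LEU4 0.039, LEU9 0.18, BAT1 0.26 and BAT2 0.10. With total counts they were ILV2 0.076, LEU9 0.056 and BAT1 0.090. Without WT replicates 2 and 3 they were ILV2 0.094, LEU4 0.099, LEU1 -0.17 and BAT1 0.15, and the LEU4 to LEU9 log2 ratio difference, -0.14, was 0.29. With single libraries left out they ranged from -0.27 to 0.13 for ILV2, -0.48 to 0.040 for ILV3, -0.089 to 0.31 for LEU1 and -0.18 to 0.15 for BAT1. The BAT1 to BAT2 log2 ratio difference, 0.16, ranged from -0.0077 (without DUS KO replicate 1) to 0.39.

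Deviations of same-numbered libraries correlated at 0.02, -0.04 and -0.07. These values show no shared shift across genes, but cannot tell whether same-numbered libraries were prepared together. With a replicate block 3 genes were called, 0 of them members.

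Depth limits DUS KO replicate 3, with 41 to 242 counts per member.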
